A study of Mus musculus with 6 samples.

Results

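Cyclic AMP and cyclic GMP are small messengers inside the cell: adenylyl cyclases make cyclic AMP from ATP, phosphodiesterases break both messengers down, and protein kinase A is the kinase that cyclic AMP switches on. In the developing cortex this pathway is known for its role downstream of G protein-coupled receptors, in axon guidance and in the response of young neurons to calcium. All rows of the deposited files whose gene symbol names a phosphodiesterase (Pde, a number and at most 1 letter), an adenylyl cyclase (Adcy and a number) or a catalytic or regulatory subunit of protein kinase A (Prka) were collected, which gave 41 of 20367 genes: 25 phosphodiesterases, 10 adenylyl cyclases and 6 protein kinase A subunits. The genes were chosen by symbol, but the set was proposed with results in view: Pde1c was selected on its measured population ratio, which reversed between ages. Pde1c is therefore described here without a test.

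The 6 libraries came from cortex of C57BL/6J mouse embryos, bred from heterozygous Tbr2(Eomes)-GFP and homozygous DCX-mRFP parents so that every embryo used carried both reporters. Tbr2 marks intermediate progenitors and DCX (doublecortin) marks young neurons. Cells with both colors were sorted as neurons derived from intermediate progenitors (IPN), and cells with red color alone as neurons not derived from them (non-IPN). Embryonic days 13.5, 15.5 and 16.5 (E13.5, E15.5, E16.5) each gave 1 library per population. The E15.5 libraries were made from 1000000 cells without amplification, whereas the E13.5 and E16.5 libraries were made from 10000 cells and amplified, so that age cannot be told apart from amplification and cell number wherever E15.5 levels stand beside others. The labels do not say how many embryos were pooled for a library, nor whether the reporters are transgenes or changed alleles. Below, 3 values in a row are for E13.5, E15.5, E16.5, in that order.

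Levels are in CPM: a deposited value divided by the total of its column, times 1000000. Totals ran from 12583677 to 32538995, but the values had been scaled before deposit and the read depth behind them is unknown. Of 7 projection neuron markers, 6 were called higher in IPN, and of 8 interneuron markers, 8 were called lower (limma, adjusted p under 0.05). All 12 microglia and macrophage markers, which are not neuronal, were also lower in IPN. The E13.5 non-IPN library stood apart: hemoglobin genes took 4.92% of its total against at most 0.0275% elsewhere, and its radial glia markers summed to 4318 CPM against 377 to 1247 in the other 5 libraries.

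Of the 41 genes, 40 were above 0 in at least 1 library and 24 had a mean of at least 10 CPM: all 6 protein kinase A subunits, 5 of 10 cyclases and 13 of 25 phosphodiesterases. Of the photoreceptor phosphodiesterase subunits, Pde6a, Pde6b, Pde6c and Pde6g stayed under 1 CPM in all 6 libraries and Pde6h was listed at 0 throughout. The cyclase Adcy4 and the cyclic AMP phosphodiesterase Pde8a also stayed under 1 CPM. Pde6d, a carrier of lipid-modified proteins, and Pde12, an enzyme of RNA, share the family name but do not degrade cyclic nucleotides.

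**Figure D1:**
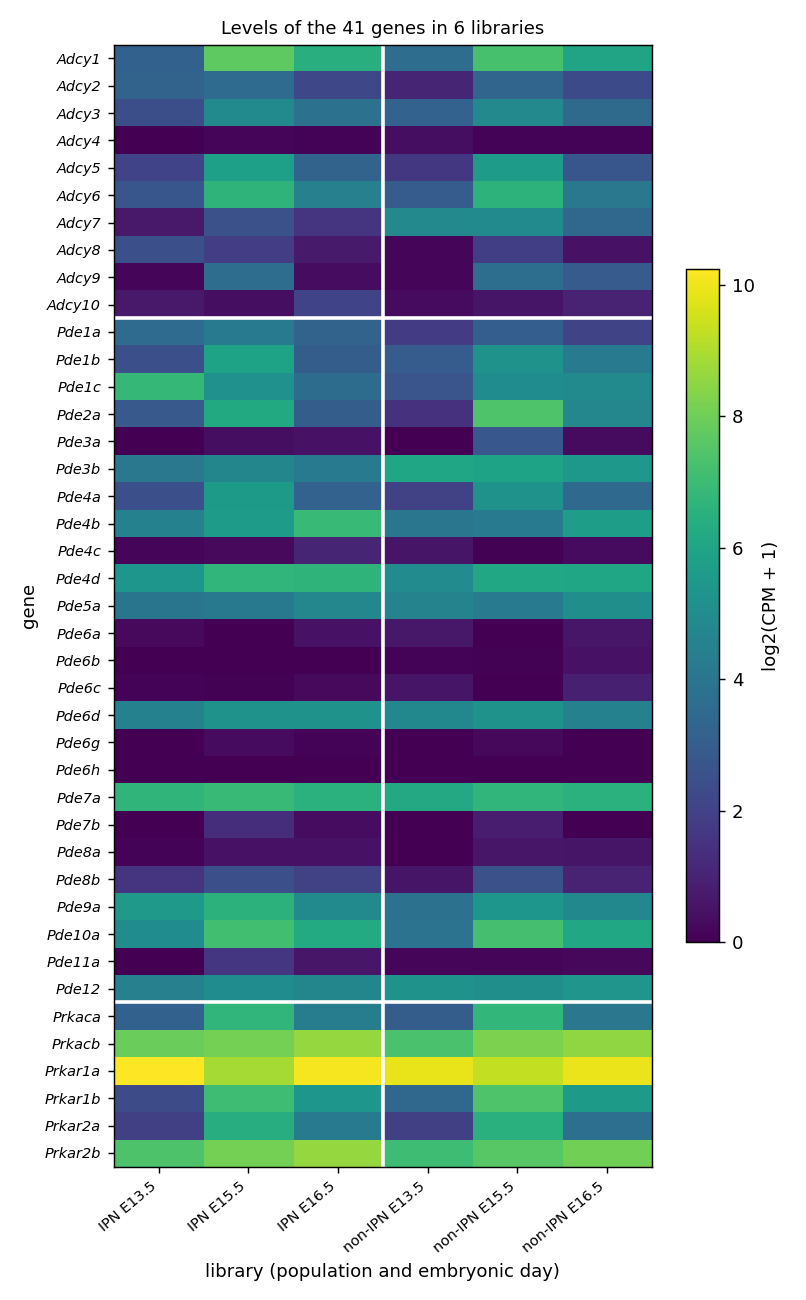
Levels of all 41 genes in the 6 libraries as log2(CPM + 1), with populations and embryonic days along the horizontal axis and genes along the vertical axis; white lines part the populations and the 3 gene families. Prkar1a, Prkacb and Prkar2b were at or above 133.8 CPM in every library, while the Pde6a, Pde6b, Pde6c, Pde6g and Pde6h rows stay near 0.

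The first comparison asked which of these genes differed between the populations. A cyclase and a phosphodiesterase, Adcy7 and Pde3b, were lower in IPN at all 3 ages, and no gene of the set was called higher with all 6 libraries. Of the 39 genes tested, 2 (5.13%) were called, beside 3.39% of all 19561 genes tested (0.982% higher and 2.41% lower), so the share was near that of all genes. The difference was fitted on log2(deposited value + 1) with age as a pairing term, and the 3 ages were its only replicates. In these bulk samples, fewer cells of a type and less RNA per cell cannot be told apart.

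Adcy7, a cyclase stimulated by G protein beta gamma subunits and known from immune cells, was at 0.646, 4.76 and 1.98 CPM in IPN and at 27.4, 28.2 and 10.1 CPM in non-IPN. Every non-IPN library lay above every IPN library. The difference was -3.24 ± 0.67 log2 units (IPN minus non-IPN, SE; limma, adjusted p = 0.0238). Pde3b, a phosphodiesterase that cyclic GMP inhibits and that insulin signaling activates, was at 16.03, 25.1 and 17.7 CPM in IPN and at 64.8, 59.6 and 43.4 CPM in non-IPN. Its populations did not overlap either, with a difference of -1.38 ± 0.29 (limma, adjusted p = 0.0296).

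Markers of microglia and macrophages and of interneurons were, like Adcy7 and Pde3b, lower in IPN at each age. The 12 microglia and macrophage markers summed to 6.33, 2.40 and 2.19 CPM in IPN and to 935, 978 and 494 CPM in non-IPN, with C1qa, C1qc, Fcer1g, Aif1 and Trem2 at 0 in the E16.5 IPN library. The 8 interneuron markers summed to 26.6, 69.5 and 64.6 CPM in IPN and to 1431, 4919 and 2872 CPM in non-IPN. The part of these cells in the values of Adcy7 and Pde3b was not tested.

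The direction of both held under every alternative run, and with median-of-ratios scaling both stayed called (adjusted p = 0.0421 for Adcy7 and 0.0441 for Pde3b), but neither call held throughout. Without limma's trend and robust options the adjusted p was 0.327 and 0.307. Unpaired, with no replicate block for age, the adjusted p was 1 for both. Among genes with a mean of at least 10 CPM, Pde3b stayed called (0.0345) and Adcy7 did not (0.0502). With a pseudocount of 8 the adjusted p was 0.0614 for Adcy7 and 0.0695 for Pde3b, and with values per column total 0.0971 and 0.0867. Without the E13.5 pair Adcy7 was at -2.30 (adjusted p = 0.0679) and Pde3b at -1.13 (0.0798); without the E15.5 pair they were at adjusted p = 0.249 and 0.321. Without the E16.5 pair Adcy7 stayed called (adjusted p = 0.0250) and Pde3b did not (0.0640). Other genes were called in these smaller fits: Pde4b higher (1.53 ± 0.23; adjusted p = 0.0196) and Pde2a lower (-1.38 ± 0.26; 0.0421) without the E13.5 pair, and Pde9a higher (1.59 ± 0.37; 0.0485) without the E16.5 pair.

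Among the other cyclases, Adcy5, which calcium and inhibitory G proteins restrain and which is known from the striatum, was above non-IPN in IPN at all 3 ages by 0.23 to 0.80 log2 units (0.57 ± 0.44; adjusted p = 0.659). The calcium-stimulated cyclases Adcy1 and Adcy3 and the calcium-inhibited Adcy6 were below non-IPN in IPN at E13.5 and above it at E15.5 and E16.5. None of these 4 genes passed the test.

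The 8 cyclic AMP-specific phosphodiesterases that were measured (Pde4a to Pde4d, Pde7a, Pde7b, Pde8a and Pde8b) all had a fitted difference above 0, with a median of 0.77 log2 units against -0.02 over all genes tested, and none was called. Of all 19561 genes, 9400 were above 0. Pde4c, Pde7b and Pde8a were near 0, with means of 0.363, 0.419 and 0.321 CPM, and Pde8b had a mean of 2.62 CPM. Single ages went the other way: the log2 ratio was -1.42 for Pde4c at E13.5, -0.26 for Pde8a at E15.5 and -0.07 for Pde4a at E16.5. Pde4b, an enzyme that binds signaling scaffolds and is the target of rolipram, came nearest. It was at 21.9, 48.8 and 123 CPM in IPN and at 15.2, 16.99 and 50.9 CPM in non-IPN. IPN lay above non-IPN at each age, by 1.24 ± 0.30 (limma, adjusted p = 0.0513). Pde4d, its close relative, was at 40.5, 107 and 99.2 CPM in IPN and at 29.7, 68.9 and 63.6 CPM in non-IPN, again with IPN above at each age (0.71 ± 0.23; adjusted p = 0.175). Pde7a was within 0.20 to 0.64 log2 units above non-IPN (0.35 ± 0.22; adjusted p = 0.564).

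The enzymes for cyclic GMP went separate ways. Pde9a, which has a high affinity for cyclic GMP, was at 45.1, 94.4 and 29.0 CPM in IPN and at 13.2, 40.9 and 26.8 CPM in non-IPN. The ratio went from 3.43 over 2.31 to 1.08 with age, and the fitted difference of 1.17 ± 0.34 was not called (limma, adjusted p = 0.111). Pde5a, the target of sildenafil, was below non-IPN in IPN at all 3 ages by at most 0.46 log2 units (-0.23 ± 0.33; adjusted p = 0.830).

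Subunits of protein kinase A differed less between the populations than Adcy7 or Pde3b, and none was called. Prkar2b, the regulatory subunit that is abundant in brain, had the largest difference of the 6: 165, 275 and 391 CPM in IPN and 134, 192 and 269 CPM in non-IPN. IPN lay above at each age, by 0.59 ± 0.20 (limma, adjusted p = 0.190). The neuronal regulatory subunit Prkar1b was below non-IPN in IPN at all 3 ages, though by under 0.01 log2 units at E16.5 (-0.48 ± 0.30; adjusted p = 0.563). Prkaca, Prkacb, Prkar1a and Prkar2a had IPN above non-IPN at E13.5 and E16.5 and below it at E15.5.

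Over the 40 measured genes, 16 were ordered the same way at all 3 ages (10 with IPN above, 6 with non-IPN above), which is 40% against 29.3% of all genes tested. Among the 24 genes with a mean of at least 10 CPM it was 11 (45.8%) against 39.9%. Adcy5, Pde4b, Pde4d, Pde7a, Pde9a and Prkar2b were the 6 with IPN above, and Adcy7, Pde3b, Pde5a, Pde12 and Prkar1b the 5 with non-IPN above.

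**Figure D2:**
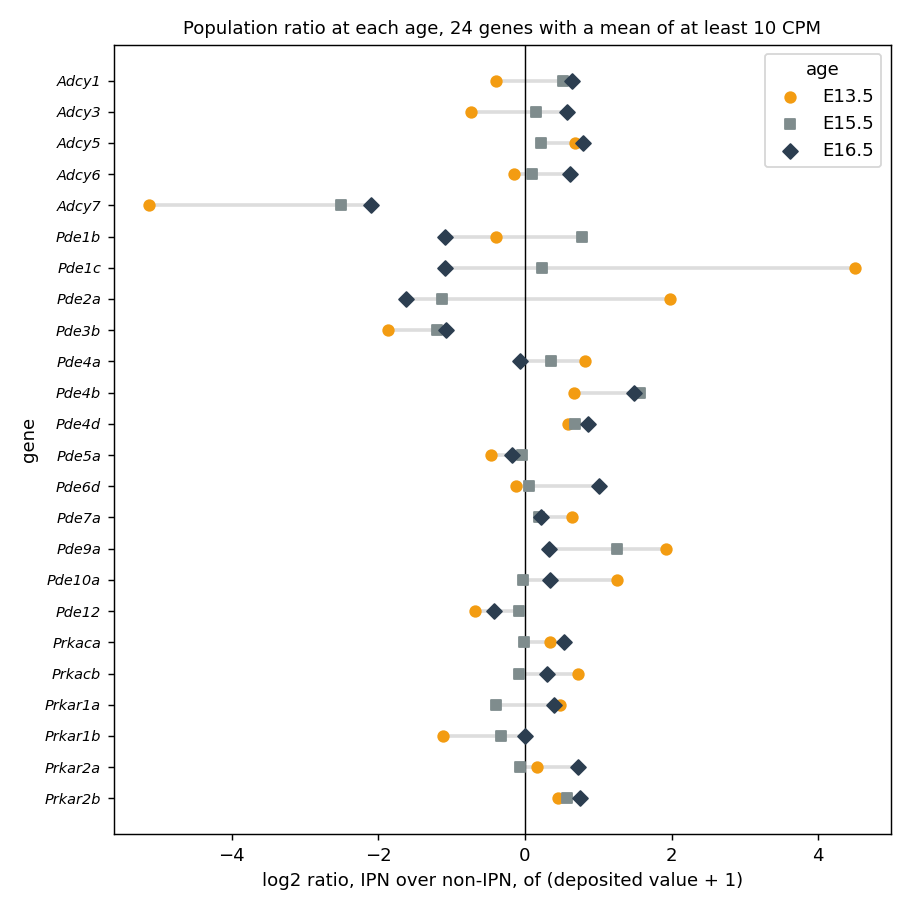
Log2 ratio of IPN over non-IPN (deposited value + 1) for the 24 genes with a mean of at least 10 CPM, with 1 symbol per age and a grey bar from the lowest to the highest ratio. Adcy7 and Pde3b lie left of 0 at every age, and Pde1c and Pde2a go from above 1 at E13.5 to under -1 at E16.5.

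The second comparison asked whether a population ratio moved with age. Pde1c, a phosphodiesterase that calcium and calmodulin activate and that degrades both messengers, was the gene noted when the set was proposed. In IPN it was at 113, 34.9 and 11.4 CPM, and in non-IPN at 5.43, 30.7 and 28.1 CPM. The ratio of IPN to non-IPN was thus 20.8, then 1.14, then 0.405, and between the amplified ages the level moved down in IPN and up in non-IPN. These values chose the gene for its ratio and carry no test. The E13.5 non-IPN library, where Pde1c was lowest, is the one with the hemoglobin reads and the high radial glia sum, and their part in the ratio was not tested.

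The other calcium-activated phosphodiesterases did not follow Pde1c. Pde1a was at 10.99, 17.5 and 8.55 CPM in IPN and at 2.43, 7.27 and 3.26 CPM in non-IPN, so that IPN lay above non-IPN at each age and the populations did not overlap (1.73 ± 0.51; limma, adjusted p = 0.125). Pde1b was at 4.65, 60.0 and 7.18 CPM in IPN and at 6.79, 36.1 and 17.8 CPM in non-IPN. Its ratio was above 1 at E15.5 alone, where it was 1.66.

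Pde2a, a phosphodiesterase that cyclic GMP stimulates, was the 1 gene of the set whose ratio was called to change with age. It was at 6.33, 74.5 and 7.11 CPM in IPN and at 1.72, 169 and 25.7 CPM in non-IPN. IPN was above non-IPN at E13.5 and below it at E15.5 and E16.5. The log2 ratio fell by 1.25 ± 0.24 per day (limma with population by embryonic day, adjusted p = 0.0199), and it was 1 of 39 genes tested (2.56%) beside 1.30% of all genes (0.68% with a falling ratio). That model has 1 residual degree of freedom and takes in the E15.5 pair, which was not amplified. In simulated data it made 43 false calls among 9645 genes. The call of Pde2a was lost with a pseudocount of 8 (adjusted p = 0.0876), and from the amplified ages alone its ratio fell by 1.204 per day, a value with no test.

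Among the 24 genes with a mean of at least 10 CPM, Pde1c and Pde2a were the 2 whose log2 ratio was past 1 at E13.5 and past -1 at E16.5, or the reverse, beside 1.55% of 9349 such genes (0.824% in their direction and 0.727% in the other). Nothing is read from this count, since Pde1c was noted for that ratio. For Adcy7, the cyclase whose ratio moved most per day among those with a mean of at least 10 CPM, the log2 ratio went from -5.13 over -2.504 to -2.09, a change of 1.05 ± 0.36 per day that was not called (limma, adjusted p = 0.147). For protein kinase A the largest change per day was in Prkar1b (0.37 ± 0.18; adjusted p = 0.306).

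**Figure D3:**
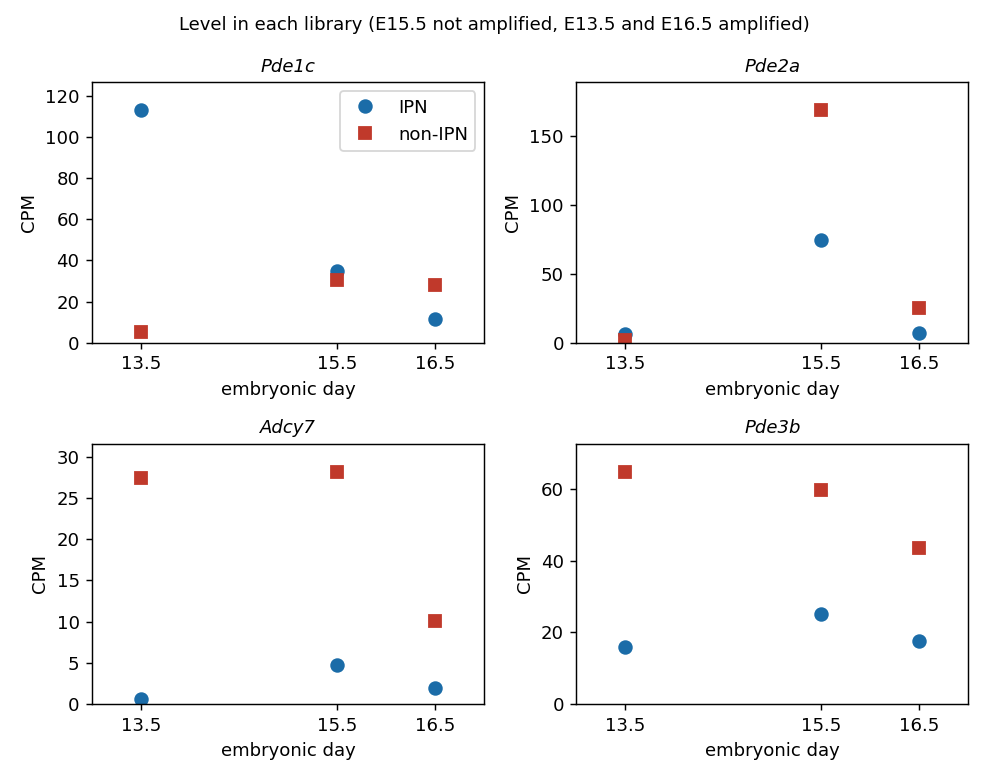
CPM of Pde1c, Pde2a, Adcy7 and Pde3b by embryonic day, with 1 point per library (circles for IPN, squares for non-IPN) and no error bars because each point is a single library. The populations change order in Pde1c and Pde2a and stay apart in Adcy7 and Pde3b.

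The third comparison set E16.5 against E13.5, the ages that were both amplified. The fit took in all 6 libraries with population as a term, so the E15.5 pair also entered its spread. The populations were the only replicates of an age. A cyclase, 2 phosphodiesterases and 3 regulatory subunits of protein kinase A rose, and no tested gene of the set was called lower. The 6 that rose were 15.4% of the 39 tested, beside 3.76% of all genes called higher and 6.02% called in either direction. Over the 40 measured genes the median difference was 0.87 log2 units against 0.00 over all genes tested, and 22 (55.0%) were higher at E16.5 in both populations, against 27.4% of all genes. Prkar1a was the 1 gene lower in both, against 24.5%; together the 23 ordered genes were 57.5% against 52% of all. Among the 24 with a mean of at least 10 CPM, 16 (66.7%) were higher in both and 1 lower, against 36.4% and 32.7%.

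Adcy1, a cyclase that calcium and calmodulin stimulate and that is known for its role in cortical maps, was the cyclase that rose. It went from 8.08 to 84.3 CPM in IPN and from 11.8 to 62.6 CPM in non-IPN. Both E16.5 libraries lay above both E13.5 libraries (2.77 ± 0.34; limma, adjusted p = 0.00297). Adcy6 went from 5.62 to 21.2 and from 6.94 to 16.1 CPM, and Adcy5 from 3.17 to 8.62 and from 2.14 to 5.72 CPM, without passing the test (adjusted p = 0.0653 and 0.196).

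Of the phosphodiesterases, Pde4b rose from 21.9 to 123 CPM in IPN and from 15.2 to 50.9 CPM in non-IPN (1.99 ± 0.36; limma, adjusted p = 0.0128). Pde10a, an enzyme for both messengers that is known from striatal neurons, rose from 30.4 to 75.6 CPM in IPN and from 14.0 to 69.6 CPM in non-IPN (1.69 ± 0.35; adjusted p = 0.0213). The ages did not overlap for either gene. Pde4d just missed the threshold (1.08 ± 0.29; adjusted p = 0.0544), whereas Pde7a and Pde12 differed by -0.02 and 0.03 log2 units.

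In protein kinase A, the regulatory subunits moved unequally. Prkar1b rose from 4.201 to 40.3 CPM in IPN and from 10.2 to 46.9 CPM in non-IPN (2.60 ± 0.37; limma, adjusted p = 0.00488). Prkar2a, a type II subunit made in most tissues, rose from 2.84 to 17.9 and from 2.79 to 12.5 CPM (2.26 ± 0.46; adjusted p = 0.0202). Prkar2b rose from 165 to 391 and from 134 to 269 CPM (1.01 ± 0.24; adjusted p = 0.0393). For all 3 the E16.5 libraries lay above the E13.5 libraries. Prkar1a, the regulatory subunit made in nearly all cells, was at 1207 and 960 CPM at E13.5 and at 1107 and 974 CPM at E16.5 (-0.17 ± 0.26; adjusted p = 0.747). The catalytic subunits Prkaca (1.09 ± 0.38; adjusted p = 0.127) and Prkacb (0.87 ± 0.27; adjusted p = 0.0867) were not called.

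The E15.5 libraries, which were not amplified, bore on how these values read. Adcy1 (209 and 151 CPM at E15.5 in IPN and non-IPN), Pde10a (142 and 149), Prkar1b (131 and 171) and Prkar2a (81.2 and 88.3) were higher there than at either amplified age, while Pde4b and Prkar2b were not higher than at E16.5. The part of amplification in the change between E13.5 and E16.5 was not tested. Markers of other cells moved with age too. Of 8 interneuron markers 3 rose, with sums from 26.6 to 64.6 CPM in IPN and from 1431 to 2872 CPM in non-IPN. Projection neuron markers summed to 3493 and 3509 CPM in IPN and to 432 and 1583 CPM in non-IPN, with none called higher and 1 lower. All 10 markers of dividing cells fell, from 1252 to 532 CPM in sum in IPN and from 4067 to 669 CPM in non-IPN. Of 12 striatal markers, 0 were called higher and 1 lower. The part of these cells in the rises was not tested. With any 1 of the 4 amplified libraries left out, which leaves 1 residual degree of freedom, no gene of all those tested was called (limma; 1809 to 4025 at an unadjusted p under 0.05). In the 4 amplified libraries alone 97 genes were called, none of them among the 6, whose adjusted p ran from 0.0590 to 0.175. With median-of-ratios scaling all 6 stayed called. Among genes with a mean of at least 10 CPM all 6 stayed called and Adcy6 (adjusted p = 0.0404) and Pde4d (0.0309) were called as well. With values per column total, Adcy1 and Prkar1b alone stayed called (adjusted p = 0.0391 and 0.0427).

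**Figure D4:**
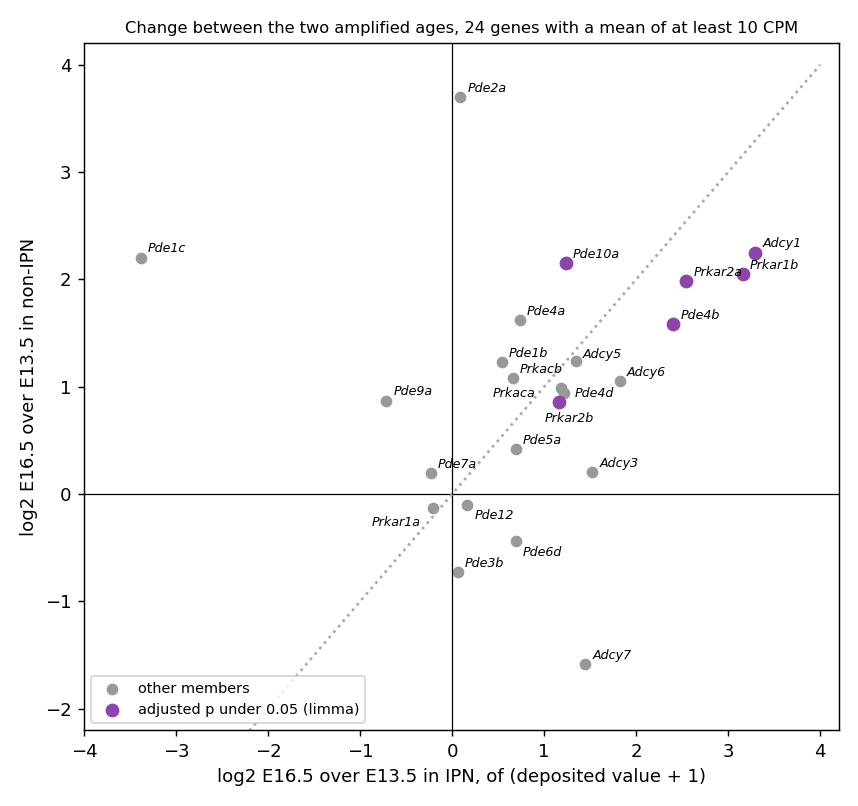
Log2 ratio of E16.5 over E13.5 (deposited value + 1) in IPN on the horizontal axis and in non-IPN on the vertical axis for the 24 genes with a mean of at least 10 CPM; the dotted line marks equal change. The 6 called genes lie above 0 in both populations, Pde1c lies at -3.39 in IPN and 2.20 in non-IPN, and Pde2a at 0.08 and 3.70.

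Promoters of the set were read for the binding motif of CREB, the transcription factor that protein kinase A phosphorylates. RefSeq windows (build GRCm38.p6) around transcript starts were matched by symbol for 32 of the 41 genes, with 69 windows. The core motif TGACG, or CGTCA on the other strand, was in 16 of 69 windows (23.2%), beside 20.8% of 32851 windows of all genes. Counted by gene it was in 14 of 32 (43.8%) beside 23.1% of 27025 genes, but the set has 2.16 windows per gene and all genes have 1.22. The full motif TGACGTCA, which holds the core on both strands, was in 2 of 69 (2.90%) beside 1.79%. Both windows with the full motif belong to overlapping windows of Prkar1a, which was not called. Of the 6 risen genes, 3 of 15 windows held the core: 1 of 4 of Pde4b, 1 of 5 of Prkar1b and the window of Prkar2a, while those of Adcy1, Pde10a and Prkar2b did not. Shown are the 3 windows that hold it, in capitals, and the window of Adcy1, which does not; a match describes the letters alone.
Pde4b, chr4:102421305-102421604, plus strand: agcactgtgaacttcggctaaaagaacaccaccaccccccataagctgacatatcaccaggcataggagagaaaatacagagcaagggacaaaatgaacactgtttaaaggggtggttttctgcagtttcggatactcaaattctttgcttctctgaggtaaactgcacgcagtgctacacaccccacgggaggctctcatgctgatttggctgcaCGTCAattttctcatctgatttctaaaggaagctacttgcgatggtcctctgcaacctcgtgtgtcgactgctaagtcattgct
Prkar1b, chr5:139149952-139150251, minus strand: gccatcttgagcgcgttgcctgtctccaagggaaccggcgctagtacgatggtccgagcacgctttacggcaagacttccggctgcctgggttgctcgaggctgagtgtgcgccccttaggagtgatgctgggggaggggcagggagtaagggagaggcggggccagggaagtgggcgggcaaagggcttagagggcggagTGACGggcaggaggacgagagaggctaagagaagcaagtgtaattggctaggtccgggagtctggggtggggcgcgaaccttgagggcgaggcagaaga
Prkar2a, chr9:108691893-108692192, plus strand: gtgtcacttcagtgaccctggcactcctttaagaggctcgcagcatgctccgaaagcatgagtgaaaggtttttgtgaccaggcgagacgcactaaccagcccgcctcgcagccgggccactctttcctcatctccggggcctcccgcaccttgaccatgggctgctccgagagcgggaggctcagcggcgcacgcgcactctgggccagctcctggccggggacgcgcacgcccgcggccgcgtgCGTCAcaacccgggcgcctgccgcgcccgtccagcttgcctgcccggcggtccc
Adcy1, chr11:7063183-7063482, plus strand: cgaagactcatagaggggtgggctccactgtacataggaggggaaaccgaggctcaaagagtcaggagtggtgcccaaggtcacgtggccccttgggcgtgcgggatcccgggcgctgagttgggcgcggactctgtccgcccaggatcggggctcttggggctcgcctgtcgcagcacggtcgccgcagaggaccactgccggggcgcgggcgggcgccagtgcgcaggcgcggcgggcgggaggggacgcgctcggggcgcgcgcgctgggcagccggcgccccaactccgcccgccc

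The inactive kinase is a complex of regulatory and catalytic subunits, and levels of different subunits were compared per length, as CPM per kb of exon in the GENCODE M21 annotation (build GRCm38). Prkar1a was the highest of the 6 subunit genes in all 6 libraries, at 297, 114 and 272 CPM per kb in IPN and 236, 155 and 239 in non-IPN. It made up 86.3%, 45.3% and 68.6% of the summed regulatory level in IPN and 85.3%, 54.5% and 72.1% in non-IPN. Prkar2b came next among the regulatory subunits in 5 libraries, with 13.2% to 30.01% of that sum, and Prkar1b in non-IPN at E15.5 (20.8%, against 18.5% for Prkar2b). Of the catalytic level, Prkacb made up 90.7% to 93.4% in the amplified libraries and 55.7% and 56.9% at E15.5. The order of the subunits thus depended on the library, and with 1 library per population and age no spread can be set on it.

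**Figure D5:**
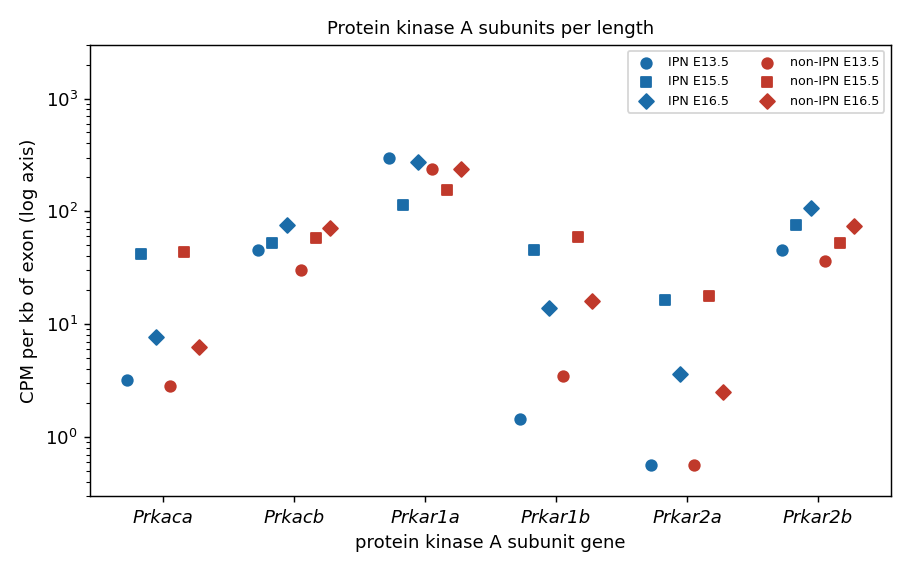
CPM per kb of exon (log axis) of the 6 protein kinase A subunit genes, with 1 point per library, colors for the populations and symbols for the ages. Prkar1a is highest in every library, and Prkaca, Prkar1b and Prkar2a are highest in the E15.5 libraries.

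Per length, the leading cyclase was Adcy2 in IPN and Adcy7 in non-IPN at E13.5 (2.06 and 4.404 CPM per kb). At E15.5 it was Adcy1 in IPN (17.04) and Adcy6 in non-IPN (15.9), and at E16.5 it was Adcy1 in both (6.88 and 5.11). Among phosphodiesterases that act on cyclic nucleotides, Pde9a led in IPN at E13.5 and E15.5 (20.3 and 42.4 CPM per kb) and Pde4b at E16.5 (15.1). In non-IPN Pde7a led at E13.5 and E16.5 (11.2 and 14.2) and Pde2a at E15.5 (38.2).

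Other genes of the pathway were counted in 9 lists of 138 measured genes, written with earlier results of these data known. Between the populations 10 were called, 5 higher and 5 lower in IPN, beside 0.982% and 2.41% of all genes. Of 23 receptors that stimulate cyclases, the melanocortin receptor Mc4r was higher (3.68 ± 0.58), and the serotonin receptor Htr7 was lower (-4.31 ± 0.90). Htr7 was near 0 in IPN (0, 0.092 and 0.205 CPM) and at 2.7, 3.5 and 2.2 CPM in non-IPN. With a pseudocount of 8 its difference was -2.55 and its call was lost (limma, adjusted p = 0.0720). Of 28 receptors that inhibit cyclases, the adrenergic receptor Adra2c (3.71 ± 0.71) and the cannabinoid receptor Cnr1 (1.78 ± 0.34) were higher, and the sphingosine phosphate receptor S1pr1 (-5.07 ± 0.86) and the chemokine receptor Cxcr4 (-3.52 ± 0.50) lower. Adra2c was low in non-IPN (0.215, 1.75 and 0.477 CPM), as was S1pr1 in IPN (2.13, 1.48 and 0 CPM).

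Among targets and partners of the kinase, the phosphoproteins Ppp1r1b (3.41 ± 0.74) and Arpp21 (2.30 ± 0.51) were 2 of 8 called higher, and Akap13 was 1 of 17 anchoring proteins called lower (-1.37 ± 0.32). Akap13 was at 22.0, 23.6 and 9.30 CPM in IPN and at 48.9, 52.7 and 43.6 CPM in non-IPN, so that the populations did not overlap. With a pseudocount of 8 Ppp1r1b, Arpp21 and Akap13 lost their calls (limma, adjusted p = 0.0904, 0.119 and 0.0934). Their calls were also lost with column totals and without the E15.5 pair. No gene was called among 7 G proteins, 14 other receptors of cyclic AMP, 16 genes of cyclic GMP synthesis and its kinase, 19 genes of the CREB family and its responsive genes, or 6 peptides.

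Between E13.5 and E16.5, 16 of the 138 pathway genes rose and 2 fell, beside 3.76% and 2.26% of all genes. All 3 called genes of cyclic GMP synthesis were subunits of soluble guanylyl cyclase, the enzyme that nitric oxide activates. Gucy1a3 went from 20.9 to 433 CPM in IPN and from 25.3 to 645 CPM in non-IPN (4.402 ± 0.41; limma, adjusted p = 0.000963), Gucy1b3 rose by 2.84 ± 0.52 and Gucy1a2 by 1.40 ± 0.29. The G protein Gnal, which stimulates cyclases in striatal and olfactory neurons, rose (1.78 ± 0.38), and Gnas, the stimulatory G protein of most cells, fell (-0.91 ± 0.22). Gnas shares its locus with overlapping transcripts, and the counting rule is not given in the sources used here.

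The anchoring proteins Akap9 (1.64 ± 0.24) and Akap11 (1.48 ± 0.25), the kinase inhibitor Pkia (1.43 ± 0.26), Arpp21 (2.59 ± 0.62) and the channel gene Hcn3 (2.45 ± 0.46) rose as well. In the CREB list, the coactivators Crebbp (2.18 ± 0.29) and Crtc1 (2.48 ± 0.57) rose and the factor Atf1 fell (-1.74 ± 0.32). Of the receptors, Mc4r (4.80 ± 0.71) and Gpr12 (2.66 ± 0.56) rose among those that stimulate cyclases, and Grm3 (5.12 ± 0.87), Adora1 (3.52 ± 0.80) and Gabbr1 (1.51 ± 0.32) among those that inhibit them. At E13.5, in IPN and non-IPN, Grm3 was at 0.323 and 0.215 CPM, Adora1 at 0.582 and 0.572, and Mc4r at 1.36 and 0.0715. The large differences of these genes thus start from levels near 0. Crtc1 also started low, at 0.711 and 0.787 CPM, and was at 4.51 and 5.25 CPM at E16.5. In the E15.5 libraries, which were not amplified, Crtc1 was at 125 and 132 CPM. In the 4 amplified libraries alone 2 of the 138 were called (limma), beside 97 of all genes tested there. The fits with 1 of those libraries left out are described with the dependence on processing below.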

How the data were processed

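Gene expression was measured by RNA sequencing. The tools named are edgeR, SAMtools 0.1.18, TopHat 1.2.0 and CASAVA 1.9, and the build mm9, per the submitters' processing notes, which give no roles, counter or scaling method. Each deposited file pairs gene symbols with whole numbers, a signal scaled by the authors: both E15.5 upper quartiles were near 1502 and the amplified libraries' lay between 438 and 444, while totals differed. The design allowed for raw counts, so its plan for normalized values was used. Of 20373 rows, 6 rows of 3 repeated symbols were dropped. The 19561 genes above 0 in at least 1 library were tested with limma 3.58.1 (R 4.3.3; trend and robust) on log2(value + 1), with Benjamini-Hochberg adjustment over all genes and a threshold of 0.05; fold changes of low genes are understated. Population and age were factors (2 residual degrees of freedom), and a further model added population by day (1 residual degree of freedom). The age factor pairs the populations of a day, which the protocol describes as sorted from the same cortices. No label names separate animals, so p-values measure only the spread between these libraries. The scripts were tested on simulated data, where the population and age models made 5 and 3 false calls among 19561 genes. The model by day, run there only on 9645 genes of higher level, made 43 false calls. It recovered 98 of 100 smaller and 100 of 100 larger planted effects. The population model recovered 64 and 92 for effects of 2 and 3 log2 units, and the age model 55 and 82. In all models the effects were planted only in genes of higher level. The simulated spread was drawn from the fitted models, so these counts describe that setting and not the real libraries. The members and lists were chosen with earlier results of these data known. Map2, listed as an anchoring protein, is not analysed here, and 1 called pathway gene is counted but not reported here. Described in full were Pde1c, all called genes, and the largest change in each family among genes with a mean of at least 10 CPM; from each pathway list, up to 4 called genes per comparison.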

Additional observations from a re-analysis of the deposited data

Results flagged for a closer look

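For 2 genes the population ratio differed between ages by a test of the difference itself (limma, population by embryonic day, 1 residual degree of freedom). In simulated data that model made 43 false calls among 9645 genes, whereas the population and age models made 5 and 3 among 19561. The log2 ratio of IPN over non-IPN of Pde2a changed by -1.25 per day, from 1.99 at E13.5 to -1.13 at E15.5 and -1.63 at E16.5. That of Cnr1, a cannabinoid receptor that inhibits cyclases, changed by -0.71 per day (adjusted p = 0.0376), from 2.94 to 1.60 and 0.79. Cnr1 was at 716, 611 and 724 CPM in IPN, while its non-IPN level rose from 103 over 209 to 487 CPM. Projection neuron markers summed to 3493, 4139 and 3509 CPM in IPN, against 432, 364 and 1583 CPM in non-IPN. Both ratios also draw on the non-IPN library of E13.5, set apart above by its hemoglobin and radial glia genes. The part of projection neurons or of that library in either ratio was not tested. Cnr1 was 1 of 138 pathway genes called, beside 1.30% of all genes. Its call was lost with a pseudocount of 8 (adjusted p = 0.106) and among genes with a mean of at least 10 CPM (0.0570). With column totals 9 of the 138 were called, and with median-of-ratios scaling 15, Cnr1 among them both times. The calls over all 19561 genes rose as well, to 906 and 1559 under these settings.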

How the results depend on the processing

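All 9 calls among the enzymes and kinase subunits kept their direction under every alternative run, and none kept its call under every alternative. With median-of-ratios scaling all 9 stayed called, and among genes with a mean of at least 10 CPM all but Adcy7. Counts are given below as all genes, then the 41-gene set without Pde1c, then pathway genes. For the population difference (664, 2 and 10 called) they were 364, 0 and 4 with a pseudocount of 8; 196 (13 higher and 183 lower, against 192 and 472), 0 and 1 with column totals; 358, 1 and 3 among genes with a mean of at least 10 CPM; and 594, 2 and 8 with median-of-ratios scaling. Without trend and robust options, and with no replicate block (no age term, so unpaired), they were 0, 0 and 0, with 1946 and 676 of all genes at an unadjusted p under 0.05 (6 and 2 of the set). Leaving out 1 age pair gave 54 to 595, 0 to 2 and 0 to 10, the lowest without the E15.5 pair; the members called without the E13.5 pair were Pde4b and Pde2a, and without the E16.5 pair Adcy7 and Pde9a. For the age difference (1178, 6 and 18) they were 529, 3 and 10 with a pseudocount of 8; 244 (183 higher and 61 lower, against 736 and 442), 2 and 5 with column totals; 1115, 6 and 17 with median-of-ratios scaling; 1313, 8 and 19 among genes with a mean of at least 10 CPM; and 97, 0 and 2 in the 4 amplified libraries alone. Leaving out 1 amplified library gave 0, 0 and 0 each time, with 7 to 14 of the set at an unadjusted p under 0.05. For the change of the ratio per day (255, 1 and 1) they were 19, 0 and 0 with a pseudocount of 8, 906 and 9 (all genes and pathway genes) with column totals, 1559 and 15 with median-of-ratios scaling, and 135 and 0 among genes with a mean of at least 10 CPM; Pde2a stayed called in the last 3. No library could be left out of that model. The causes were not tested. A count model was not run, since the values are not raw counts. Read depth is unknown, so no counting error is given.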

Other observations

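Several members with a mean under 10 CPM differed strongly between the populations at a single age. The cyclase Adcy8, which calcium stimulates, had 4.65 CPM in the E13.5 IPN library and 0.143 in its non-IPN partner, but 2.67 and 2.74 at E15.5. Adcy9 had 0.274 CPM in the E16.5 IPN library and 6.596 in its partner, but 11.5 and 12.1 at E15.5. The phosphodiesterase Pde3a had 0.307 CPM in the E15.5 IPN library and 5.87 in its partner and was listed at 0 in both E13.5 libraries. Pde11a had 2.06 CPM in the E15.5 IPN library and 0.0957 in its partner. None of these 4 genes was called in any comparison, and each difference rests on 1 pair of libraries.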
